A study of Mus musculus with 48 samples.

Results

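Lymphatic endothelial cells (LECs) and blood endothelial cells (BECs) sorted from the same angiotensin II-infused hearts were compared by low-input RNA-seq, to ask whether the expression patterns that separate the lineages were kept under angiotensin II. The comparison used 10 of the 48 libraries of the series, chosen from the labels alone: every heart LEC and heart BEC library of the angII group, as 5 pairs from mice 3, 12, 14, 15 and 18. All mice carried the Prox1-eGFP knock-in, in which an eGFP cassette follows Prox1 at its endogenous locus, and the methods give the knock-in animals as males. The angII mice received angiotensin II with bovine serum albumin (BSA) from a subcutaneous minipump, the ctrl mice received BSA alone, and the angII+VEGFC mice received angiotensin II with VEGFCc156s, a form of the growth factor VEGFC that acts on the lymphatic receptor VEGFR3. Cells were taken 5 to 6 weeks after pump implantation. By the labels the animals were 8 to 16 months old, but the methods state their age in weeks, and which holds is not known here. The 4 ctrl mice (1, 5, 9 and 11) served as the baseline and the 3 angII+VEGFC mice (2, 6 and 8) as an outside reference, each with a heart LEC and a heart BEC library, and the animals of the 3 groups were different mice.

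Blood and lymphatic endothelium line separate vessels of the heart. LECs arise largely from venous endothelium when the transcription factor PROX1 is switched on, and PROX1 must stay present for the cells to remain lymphatic. They take up fluid, fat and immune cells through loosely joined capillaries, carry the hyaluronan receptor LYVE1 and the VEGFC receptor VEGFR3 (Flt4), and attract dendritic cells with the chemokine CCL21. Cardiac BECs form a dense capillary bed that passes oxygen and fatty acids to the working muscle and makes nitric oxide through endothelial nitric oxide synthase (Nos3). Live CD31-positive, CD45.2-negative cells had been split by eGFP into LECs and BECs, so that Prox1, Pecam1 (CD31) and Ptprc (CD45) reflect the sort and are a check of the labels rather than results.

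Values are TPM, a gene's share of all transcripts in its library after correction for transcript length, and the number of reads behind them is unknown, since TPM keeps no counts. Differences are LEC minus BEC on the log2(TPM + 1) scale, which understates the change of genes at low TPM, and are given with the standard error (SE) of a paired limma fit over 24137 genes. Values of the angII mice are listed in the order of mice 3, 12, 14, 15 and 18. The 5 angII LEC libraries had between 19957 and 25896 genes at 1 TPM or more and the 5 BEC libraries between 15076 and 18380, and the LEC library had more in 5 of 5 mice (mean difference 5883 genes). In the ctrl hearts the mean difference was 844 genes, with more in the LEC library of 3 of 4 mice, and in the angII+VEGFC hearts it was 83 genes. The larger gap in the angII mice had an exact two-sided permutation p of 0.00794, the smallest that 5 against 4 mice can give (0.0635 adjusted over 8 library measures). In bulk samples, fewer cells of a type and less RNA per cell cannot be told apart.

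The lymphatic and blood endothelial programmes were both separated in the angiotensin II hearts. Prox1, which drives the eGFP used in the sort (chromosome 1, positions 190118035 to 190170714 on the minus strand in GRCm38), was at 161, 229.8, 143, 97.6 and 163 TPM in LECs and at 4.53, 2.33, 2.94, 2.67 and 2.39 TPM in BECs. Every LEC library was far above every BEC library, and the means were 159 ± 47.6 TPM in LECs against 2.97 ± 0.905 TPM in BECs (SD, n = 5). The paired difference was 5.30 ± 0.21 (SE), and it was 5.01 in the ctrl hearts. Lyve1, the hyaluronan receptor of lymphatic capillaries (chromosome 7, positions 110850607 to 110863239 on the minus strand), was at 1403, 1587, 1019, 1208 and 1431 TPM in LECs and at 44.4, 32.8, 27.4, 44.7 and 38 TPM in BECs. The LEC libraries again lay far above the BEC libraries, with a difference of 5.12 ± 0.13 (adjusted p = 7.21e-08, limma). Nos3 (chromosome 5, positions 24364810 to 24384474 on the plus strand) was at 136, 217, 221, 176 and 186 TPM in LECs and at 270.1, 337, 298, 334 and 323 TPM in BECs. It was therefore not a gene of BECs alone: the highest LEC value lay below the lowest BEC value, but LECs held a mean of 187 ± 34.7 TPM against 312 ± 28.2 TPM in BECs. Its difference was -0.75 ± 0.11 (adjusted p = 0.00149), and this turned to 0.10, past no threshold, when the number of detected genes was added as a covariate. For each of the 3 genes the exact sign-flip p over the 5 mice was 0.0625, the smallest that 5 pairs allow. The difference in the angII hearts exceeded that in the ctrl hearts by 0.30 for Prox1 (exact permutation p = 0.373) and by 0.41 for Lyve1 (exact permutation p = 0.0714). For Nos3 it did so by 0.09 (exact permutation p = 0.770). None passed the threshold (0.559, 0.214 and 0.770 adjusted over the 3). The Prox1 tests cannot show whether Prox1 was kept, since the sort on its eGFP set this gap in every group. A cell that lost Prox1 expression could have left the LEC gate and entered the eGFP-negative BEC gate. The LEC values of all other lymphatic genes were taken behind the same gate. They therefore describe cells that stayed eGFP-positive, and cannot show whether other cells lost the lymphatic programme.

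**Figure D1:**
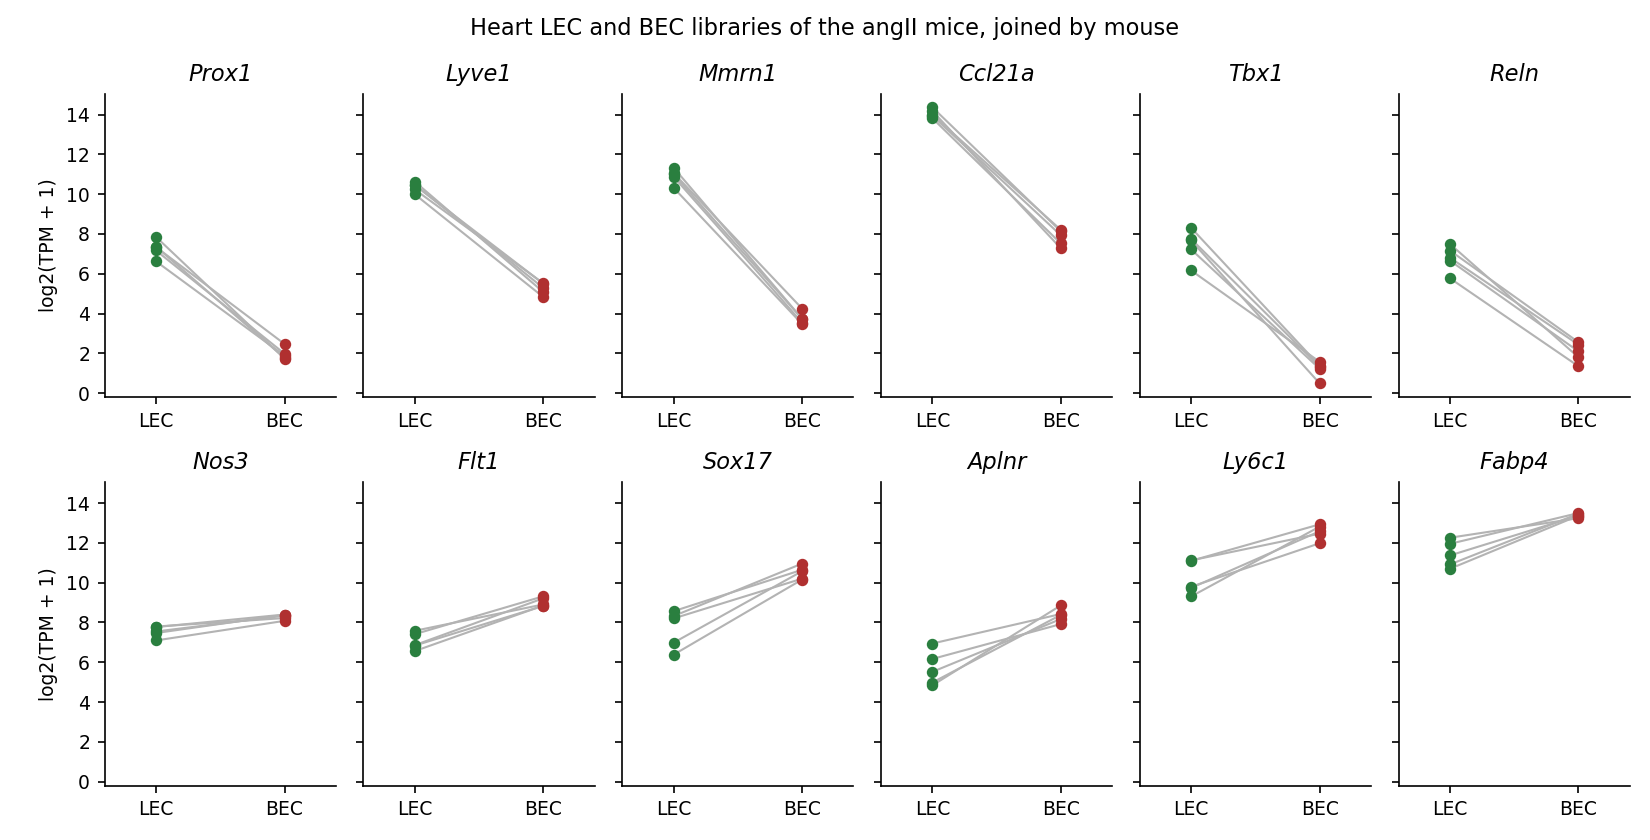
Level as log2(TPM + 1) in the LEC and BEC library of each angII mouse for Prox1, Lyve1, Nos3 and other identity genes. A line joins the libraries of 1 mouse, and colours mark the population. Prox1 lies between 97.6 and 230 TPM in angII LECs and between 2.33 and 4.53 TPM in angII BECs, whereas Nos3 differs by less than 1 log2 unit on average.

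Over all genes, 5445 (22.6% of those tested) were higher in LECs and 1972 (8.17%) were higher in BECs at an adjusted p under 0.05, with a median difference of 0.37. This excess towards LECs sat in genes of low level. Among the 14800 genes under 10 TPM in the population with the higher mean, 3741 were higher in LECs and 311 in BECs. Among the 9337 genes at 10 TPM or more the numbers were 1704 and 1661, with a median difference of 0.01. Pseudogenes gave 1065 against 36 of 4121, and protein-coding genes 2935 against 1807 of 15167. Quantile normalization turned the split to 1773 higher in LECs and 2489 higher in BECs. The 3 mice of sequencing batch 1 alone gave 2598 and 1199 and the 2 mice of batch 2 gave 1602 and 1173. With the number of detected genes as a covariate limma called 0 genes, with 1597 at an unadjusted p under 0.05. Among the called genes chosen by the naming rule given below, the sign turned for Nos3, Ace, Ackr1, Apln, Bdkrb2, Cdk1, Mfng, Nfatc1, Npr3, Vcam1 and Vegfc. The number of detected genes was higher in the LEC library of every angII mouse. Its part and that of the lineage therefore cannot be told apart in this fit. In the ctrl hearts 771 genes (3.67%) were higher in LECs and 1163 (5.53%) in BECs of 21030 tested. With the number of detected genes as a covariate, 1413 genes were called there.

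**Figure D2:**
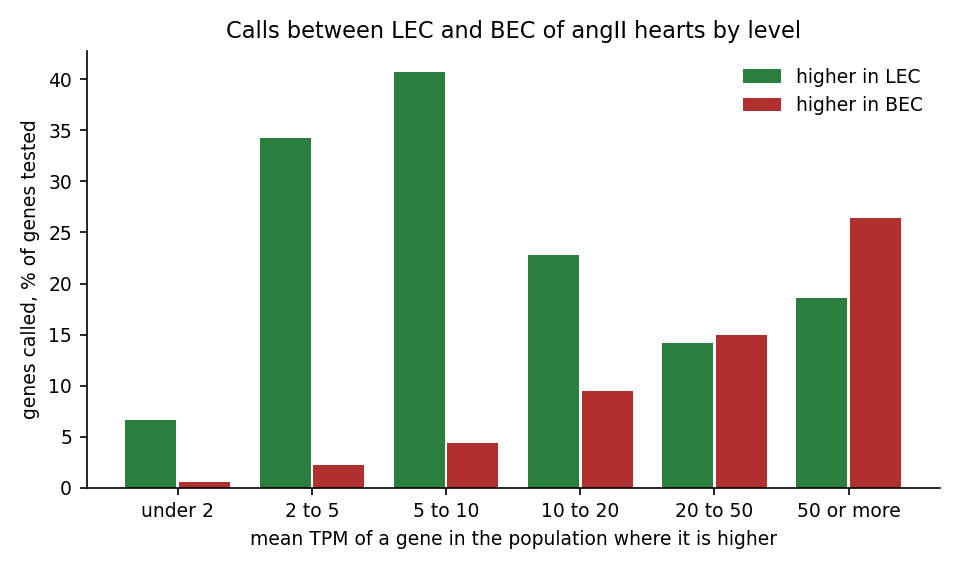
Share of tested genes called higher in LECs or higher in BECs (adjusted p under 0.05), in percent, by the mean TPM of the population with the higher mean, in the angII hearts. The LEC share leads below 20 TPM (34.2% against 2.25% at 2 to 5 TPM), and the BEC share leads from 20 TPM (26.4% against 18.5% at 50 TPM or more).

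Of 24 genes of lymphatic identity, all of which passed the filter, 21 were higher in LECs, 1 was higher in BECs and 2 did not pass, with a median difference of 3.33. In the ctrl hearts 21 were higher in LECs and none higher in BECs. Of all genes tested in the angII hearts, 22.6% were higher in LECs and 8.17% in BECs. The largest difference of any gene named here was that of Mmrn1, multimerin 1, a secreted glycoprotein of lymphatic endothelium, which was at 2052, 2585, 1282, 1889 and 2144 TPM in LECs and at 12.3, 12.3, 10.1, 10.7 and 18 TPM in BECs. The lowest LEC library stood far above the highest BEC library, and the difference was 7.18 ± 0.13 (adjusted p = 2.30e-08). Ccl21a, the chemokine that draws CCR7-bearing dendritic cells and T cells to lymphatics, was the most abundant transcript of the list, at 21205, 18636, 16357, 14473 and 15833 TPM in LECs and at 280.03, 154, 295, 183 and 244 TPM in BECs, with a difference of 6.25 ± 0.14 (adjusted p = 7.21e-08). Near-identical copies of Ccl21a exist in the mouse genome, so that its reads may be shared among them.

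Among the transcription factors of the lymphatic list, Tbx1, a T-box factor required for lymphatic growth, was at 214, 149, 70.8, 203 and 316 TPM in LECs and at 1.51, 1.33, 1.97, 0.401 and 1.59 TPM in BECs. The difference was 6.23 ± 0.33 (adjusted p = 6.65e-06). Foxc2, which controls the formation of lymphatic valves, was at 107, 107, 80.5, 143 and 184 TPM in LECs and at 19.96, 16, 24.5, 12.7 and 14.3 TPM in BECs, with no overlap and a difference of 2.74 ± 0.26 (adjusted p = 1.61e-04). Foxp2, a forkhead factor found in collecting lymphatics, had means of 44.8 ± 8.23 TPM in LECs against 4.97 ± 1.35 TPM in BECs and a difference of 2.95 ± 0.20. Maf, a factor downstream of VEGFC signalling in LECs, had a difference of 2.58 ± 0.21, and Nr2f2 (COUP-TFII), the venous factor that acts with PROX1, one of 1.59 ± 0.21. Not all factors linked to lymphatic development separated the populations in the adult heart. Of 32 endothelial transcription factors as a whole 12 were higher in BECs, 9 in LECs and 11 did not pass. The shares over all genes were 8.17% and 22.6%. Sox18, which induces Prox1 in the embryo and is also made by blood vessels, was at 372, 695, 724, 558 and 643 TPM in LECs and at 702, 1091, 724, 982 and 753 TPM in BECs, with overlapping libraries and a difference of -0.52 ± 0.14 (adjusted p = 0.0226) towards BECs. Gata2, a regulator of valve genes, had a difference of -0.18 ± 0.11 (adjusted p = 0.214), and Nrp2, the co-receptor of VEGFC, one of -0.05 ± 0.19 (adjusted p = 0.837).

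Among the receptors and surface proteins of the list, Flt4, encoding VEGFR3, was at 439.5, 625, 377, 333 and 432 TPM in LECs and at 35.8, 64.4, 48.3, 61.1 and 61 TPM in BECs. It was thus well above 0 in BECs and still without overlap, with a difference of 3.00 ± 0.16 (adjusted p = 6.65e-06). Pdpn, podoplanin, which keeps blood and lymph vessels apart through platelets, had means of 66.9 ± 11.6 TPM in LECs against 2.06 ± 1.42 TPM in BECs and a difference of 4.55 ± 0.24. Reln, reelin, a secreted protein of collecting lymphatics, was at 143, 111, 53.7, 100.2 and 180.2 TPM in LECs and at 4.9, 4.41, 1.55, 3.29 and 2.49 TPM in BECs, and its difference was 4.73 ± 0.21 (adjusted p = 3.18e-06). Ackr2, which scavenges inflammatory chemokines, had a difference of 3.83 ± 0.16, and the semaphorins Sema3d and Sema3a, guidance ligands that act through neuropilins and plexins, had differences of 3.84 ± 0.19 and 3.10 ± 0.17. Cldn11, a claudin of lymphatic valves, stood at a low level, 5.48 ± 2.33 TPM in LECs, and was listed at 0 in 2 of the 5 BEC libraries. Of 20 genes of valves and flow sensing 8 were higher in LECs, 5 in BECs and 7 did not pass. Of 23 guidance genes the numbers were 8, 7 and 8. Over all genes tested 22.6% were higher in LECs and 8.17% in BECs.

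Outside this list, Lcn2, lipocalin 2, an iron-siderophore binding protein of innate immunity, was at 431, 676, 169.5, 956 and 646 TPM in LECs and at 9.18, 5.96, 3.45, 9.52 and 8.72 TPM in BECs. LECs were higher in every mouse, and the difference was 5.97 ± 0.21 (adjusted p = 9.43e-07). Fgl2, a fibrinogen-like protein, was at 1438, 1311, 798, 1259 and 1264 TPM in LECs and at 49, 11.6, 21, 16.7 and 20.1 TPM in BECs, with a difference of 5.76 ± 0.24. Dtx1, deltex, a ubiquitin ligase that acts on Notch, was at 215, 227, 119, 151 and 193 TPM in LECs and at 2.29, 1.96, 3.35, 2.44 and 2.05 TPM in BECs, with a difference of 5.71 ± 0.22. Pard6g, a cell polarity protein, had a difference of 5.25 ± 0.16. Among the genes that the naming rule admits, these had the largest differences towards LECs at 10 TPM or more. Mmrn1, Ccl21a, Tbx1 and Prox1 belong with them, the last of which reflects the sort. Genes on the opposite strand overlap Prox1, Ccl21a, Fgl2 and Pard6g, as well as Nos3 above, and the libraries kept no strand.

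On the blood side, 22 of 24 genes of blood endothelial identity were higher in BECs, 1 was higher in LECs and 1 did not pass, with a median difference of -1.75. All 24 passed the filter, and 18 were higher in BECs in the ctrl hearts. The share of all genes higher in BECs was 8.17% in the angII hearts. Sox17, an arterial and capillary SOX factor, was at 294, 82.3, 319, 378 and 125 TPM in LECs and at 1178, 1142, 1993, 1606 and 1528 TPM in BECs. No LEC library reached a BEC library, but LEC values ran from 82.3 to 378 TPM, and the difference was -2.82 ± 0.26 (adjusted p = 1.45e-04). Aplnr, the receptor for apelin on venous and capillary endothelium, was at 44.8, 27.6, 122, 70.8 and 30.5 TPM in LECs and at 288, 464, 343, 241 and 333 TPM in BECs, with a difference of -2.66 ± 0.33 (adjusted p = 6.58e-04). Cxcl12, a chemokine made by capillary and arterial endothelium, was at 57.4, 64.1, 135, 121 and 79.4 TPM in LECs and at 352, 808, 425, 528 and 786 TPM in BECs, with a difference of -2.66 ± 0.26 (adjusted p = 1.90e-04). In each of these 3 genes the populations did not overlap, and mouse 14 had the highest LEC value of Aplnr and Cxcl12.

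Flt1 and Kdr, the VEGFA receptors VEGFR1 and VEGFR2, were present in both populations and higher in BECs. Flt1 was at 114, 93.6, 191, 169 and 115 TPM in LECs and at 456, 461, 479, 637 and 594 TPM in BECs, with a difference of -1.97 ± 0.15 (adjusted p = 5.02e-05). Kdr had means of 412 ± 72.3 TPM in LECs against 979 ± 172 TPM in BECs and a difference of -1.25 ± 0.14. Notch4, an endothelial Notch receptor, had a difference of -2.49 ± 0.46, and Rgcc, a cell-cycle and complement-response gene high in cardiac capillaries, one of -2.40 ± 0.24. Emcn, an endothelial sialomucin, had a smaller difference of -0.54 ± 0.11 and was still called higher in BECs. Its LEC level was 54.2% to 81.9% of the BEC level in the angII mice. Cdh13, T-cadherin, did not pass, with -0.30 ± 0.11 (adjusted p = 0.0592). Plvap, which forms the diaphragms of caveolae and fenestrae, ran the other way, at 799, 1042, 910.1, 1051 and 1423 TPM in LECs and at 493, 414, 478, 331 and 317 TPM in BECs. Here all LEC libraries lay above all BEC libraries, and the difference was 1.36 ± 0.19 (adjusted p = 0.00123).

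Among the genes that the naming rule admits, those of largest difference towards BECs were Hdc, Dnah2os, Slc26a10, Endou, Mcf2l, Sox17, Slc52a3 and Slc6a6. Hdc, histidine decarboxylase, which makes histamine, was at 2.97, 1.2, 5.06, 0.792 and 1.81 TPM in LECs and at 31.9, 21, 28.9, 27.8 and 35 TPM in BECs, with a difference of -3.27 ± 0.26 (adjusted p = 6.87e-05). Slc6a6, the taurine transporter, was at 86, 59.5, 214, 68.5 and 49.4 TPM in LECs and at 418, 818, 533, 532 and 669.6 TPM in BECs, with a difference of -2.80 ± 0.32 (adjusted p = 4.27e-04). Mcf2l, a guanine nucleotide exchange factor, had a difference of -2.83 ± 0.31, Endou, an RNA-binding endoribonuclease, one of -2.87 ± 0.34, and Slc52a3, a riboflavin transporter, one of -2.82 ± 0.23. Slc26a10, an anion exchanger-like gene, had a difference of -3.02 ± 0.31 and overlaps B4galnt1 on the opposite strand, and Dnah2os, with -3.04 ± 0.43, is antisense to Dnah2, so that their reads cannot be told apart from those of their partners. The sizes of these named genes were unequal between the directions. The smallest of the 8 leading LEC differences was 5.25, and the greatest of the 8 leading BEC differences was -3.27.

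Of 15 genes of fatty acid handling, 9 were higher in BECs, 2 in LECs and 4 did not pass, beside 8.17% of all genes higher in BECs and 22.6% in LECs. Fabp4, a fatty acid carrier of microvessels, was at 2649, 1662, 4914, 3970.4 and 1935 TPM in LECs and at 10607, 10602, 9722, 11611 and 11341 TPM in BECs. LECs held less in every mouse, yet Fabp4 stayed among their abundant transcripts, and the difference was -1.95 ± 0.22 (adjusted p = 4.18e-04). Cd36, the fatty acid translocase, was at 651, 350.2, 789.99, 991 and 426 TPM in LECs and at 2431, 3260.2, 1925, 3510.3 and 3424 TPM in BECs, with a difference of -2.24 ± 0.26 (adjusted p = 4.33e-04). Tcf15, which with Meox2 governs fatty acid uptake in cardiac endothelium, had means of 181 ± 116 TPM in LECs against 854 ± 236 TPM in BECs and a difference of -2.41 ± 0.25. Gpihbp1, which carries lipoprotein lipase across the capillary wall, had a difference of -1.07 ± 0.10. The genes higher in LECs were Vegfb, with 1.76 ± 0.29, and the fatty acid transporter Slc27a1, with 1.30 ± 0.28.

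Of 17 arterial genes 8 were higher in BECs, 4 in LECs and 5 did not pass, beside 8.17% and 22.6% of all genes, and of 11 venous genes 8 were higher in BECs, 2 in LECs and 1 did not pass. Jag2, a Notch ligand, had a difference of -2.09 ± 0.15, and Sema3g, an arterial semaphorin, one of -1.92 ± 0.37. Gja4, the gap junction protein connexin 37, which also serves lymphatic valves, was higher in LECs by 1.64 ± 0.13 (adjusted p = 6.51e-05). Among venous genes, Vcam1, a leukocyte adhesion receptor, had a difference of -1.65 ± 0.26. Lrg1, a secreted glycoprotein that modifies TGF-beta signalling, was at 1177, 2062, 982, 3627 and 2801 TPM in LECs and at 199, 184, 157, 253 and 189 TPM in BECs. Every LEC library was above every BEC library, and the difference was 3.28 ± 0.20 (adjusted p = 1.66e-05). In the Notch pathway 8 of 16 genes were higher in BECs, 3 in LECs and 5 did not pass. Of 10 endocardial genes 2 were higher in LECs, 1 in BECs and 7 did not pass.

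Of 12 ligands, receptors and processing factors of the VEGF family, 4 were higher in BECs, 3 in LECs and 5 did not pass, beside 8.17% and 22.6% of all genes. Vegfc, the ligand of VEGFR3, was at 15.7, 5.39, 47.7, 31.3 and 15.3 TPM in LECs and at 95.9, 118, 107, 63.2 and 94.3 TPM in BECs. BECs were the higher source in every mouse, and the difference was -2.29 ± 0.40 (adjusted p = 0.00382), opposite in sign to that of its receptor gene Flt4. Nrp1, the co-receptor of VEGFA, was at 138, 67.7, 359, 236 and 102 TPM in LECs and at 695, 748, 771, 841 and 808 TPM in BECs, with a difference of -2.34 ± 0.29 (adjusted p = 6.12e-04). Pgf, placental growth factor, and Vegfb were higher in LECs, by 1.43 ± 0.16 and 1.76 ± 0.29. Vegfa had a difference of -0.48 ± 0.19 and did not pass (adjusted p = 0.085). In the angiopoietin system 3 of 9 genes were higher in LECs, 3 in BECs and 3 did not pass. Angpt2, the context-dependent TIE2 ligand that lymphatics need, was higher in LECs by 2.41 ± 0.19, whereas Tek (TIE2) and Tie1 were higher in BECs, with differences of -0.73 ± 0.09 and -0.68 ± 0.09.

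Of 25 genes of leukocyte trafficking, 14 were higher in BECs, 7 in LECs and 4 did not pass. The background for the lists of this paragraph was 8.17% of all genes higher in BECs and 22.6% in LECs. Mrc1, a mannose receptor carried by LECs and macrophages, had means of 22.6 ± 5.65 TPM in LECs against 0.746 ± 0.203 TPM in BECs and a difference of 3.73 ± 0.24. Jam2, a junctional adhesion molecule, had a difference of -2.43 ± 0.27. Of 17 junction genes, 8 were higher in BECs and 6 in LECs. Cdh5, VE-cadherin, had a difference of -1.35 ± 0.11, whereas Cldn5, claudin 5, was higher in LECs by 0.80 ± 0.15. Of 17 basement membrane genes 13 were higher in BECs and 2 in LECs, among them the collagen gene Col4a2, with -1.67 ± 0.15, and, towards LECs, Col18a1, the source of endostatin, with 2.24 ± 0.11.

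Of 15 renin-angiotensin genes, 11 passed the filter, of which 2 were higher in LECs, 2 in BECs and 7 did not pass. The background for the lists of this paragraph was 22.6% of all genes higher in LECs and 8.17% in BECs. Agtr1a, the main angiotensin II receptor, was at 2.41, 3.26, 0.153, 1.06 and 0.379 TPM in LECs and at 1.51, 1.89, 1.5, 0.784 and 1.2 TPM in BECs, low in both populations and overlapping, with a difference of -0.12 ± 0.33 (adjusted p = 0.804). Agtr1b and Agtr2 did not pass the filter. Ace, which converts angiotensin I to angiotensin II, was at 18.6, 26.3, 23.3, 22.1 and 21.9 TPM in LECs and at 41.3, 42.5, 33, 28.6 and 36.2 TPM in BECs, with a difference of -0.66 ± 0.15 (adjusted p = 0.0122), and Anpep, an aminopeptidase of the same peptides, was higher in LECs by 2.02 ± 0.27. Among 21 vasoactive genes 11 were higher in BECs, 5 in LECs and 5 did not pass. Edn1, endothelin 1, had a difference of -0.76 ± 0.16, Apln, the ligand of Aplnr, one of -1.81 ± 0.35, and Ramp3, part of the adrenomedullin receptor, one of -2.10 ± 0.21. Ddah1, which degrades the inhibitors of nitric oxide synthase, was higher in LECs by 2.63 ± 0.34. Of 11 tested sphingosine 1-phosphate genes 2 were higher in BECs, S1pr1, the endothelial receptor, with a difference of -0.88 ± 0.12, and Plpp3, a lipid phosphatase, with -1.47 ± 0.13.

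Most genes that told the lineages apart in the ctrl hearts also did so in the angII hearts, in different mice sorted by the same eGFP gate. Of the 771 genes higher in ctrl LECs, 764 were tested in both groups, 759 had the same direction in the angII hearts (99.3%) and 667 were called there (87.3%). Of the 1163 genes higher in ctrl BECs, 1160 were tested in both, 1134 had the same direction (97.8%) and 970 were called (83.6%). Of all genes tested in the angII hearts, 22.6% were called higher in LECs and 8.17% in BECs. The all-gene median difference there was 0.37, towards LECs. The sizes did not move alike: the median difference of the LEC genes was 1.72 in ctrl and 1.42 in angII hearts, and that of the BEC genes was -1.86 in ctrl and -1.13 in angII hearts. As the genes were chosen on the ctrl values, some loss of size is built into both figures. The 3 genes called in both groups with opposite directions were Myl2, Cox7a1 and Gm8797. Of these, Myl2, a myosin light chain of cardiomyocytes, had a difference of 1.24 in angII and -1.05 in ctrl hearts.

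**Figure D3:**
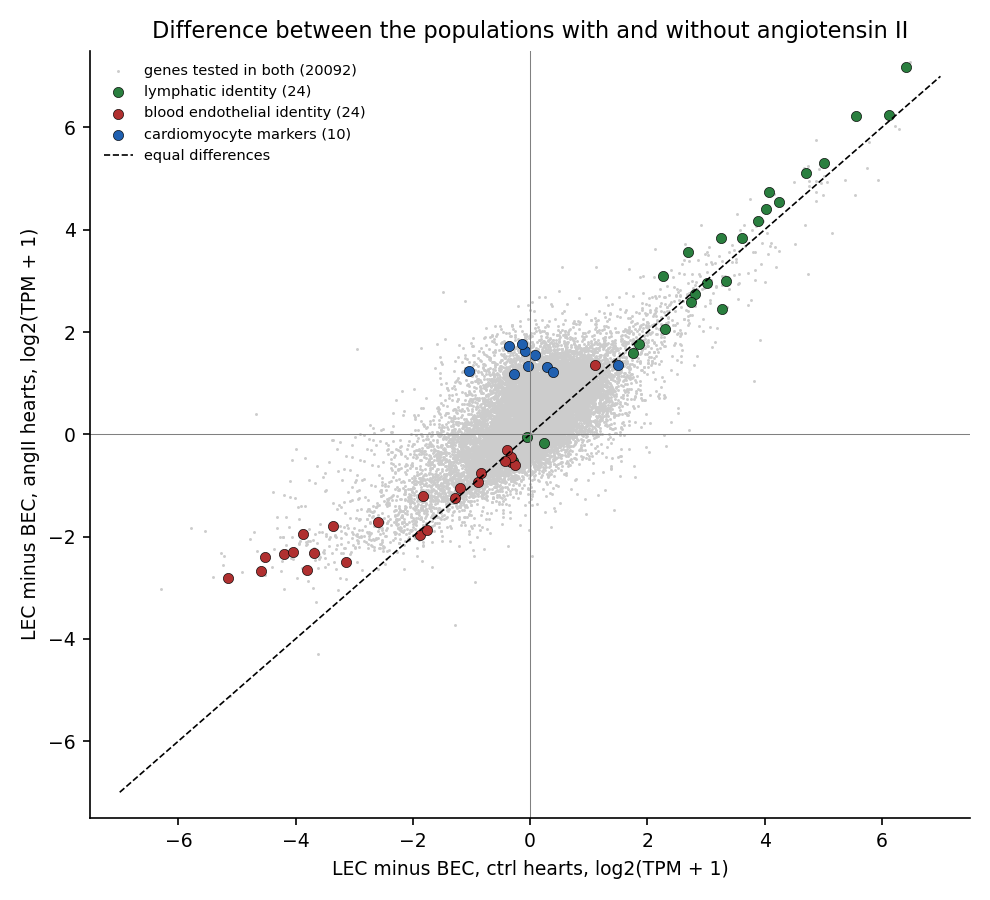
LEC minus BEC difference in log2(TPM + 1) in ctrl hearts (horizontal axis) and angII hearts (vertical axis) for the 20092 genes tested in both, with the lymphatic identity, blood endothelial identity and cardiomyocyte lists coloured. Lymphatic genes lie along the line of equal difference, several blood genes lie between it and 0, and most cardiomyocyte markers lie above 0 in the angII hearts.

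A choice of genes that used neither group gave the same contrast between the sides. Genes were taken where all 3 angII+VEGFC mice, which also received angiotensin II, differed by at least 1 log2 unit in 1 direction and the higher population reached 10 TPM on average. Of the 457 LEC genes so defined, 434 were called higher in LECs in the angII hearts (against 22.6% of all tested) and 357 in the ctrl hearts, with medians of 2.06 and 2.02. Of the 666 BEC genes, 611 were called higher in BECs in the angII hearts (against 8.17%) and 568 in the ctrl hearts, with medians of -1.49 and -2.13. The median over the LEC genes ran from 1.66 to 2.43 in the 5 angII mice and from 1.59 to 2.41 in the 4 ctrl mice, which overlapped in full. The median over the BEC genes ran from -1.83 to -1.06 in the angII mice and from -2.21 to -1.84 in the ctrl mice, without overlap, although the nearest mice of the groups almost met and, after quantile normalization, mice 12 and 18, at -1.94 and -1.90, lay beyond ctrl mouse 9 at -1.81. Within batch 1 the values were -1.39, -1.79 and -1.06 in angII mice 3, 12 and 14 and -1.98 and -1.84 in ctrl mice 1 and 9, and within batch 2 they were -1.35 and -1.83 in angII mice 15 and 18 and -2.21 and -2.15 in ctrl mice 5 and 11. From ctrl to angII hearts the change had a sign towards LECs in 572 of the 666 BEC genes (median 0.59). Among the 457 LEC genes it had that sign in 260 (median 0.07). Over all 27925 genes in that test the median was 0.26, so that most genes had that sign. After quantile normalization the all-gene median was -0.006, and the counts were 550 of the 666 and 239 of the 457. Genes measured in the same mice are not independent of each other.

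The strongest lineage genes were those with a difference of at least 3 in the angII+VEGFC mice, a limit chosen after seeing the data. On the BEC side their median change was larger, but the mice of the groups overlapped. All 72 LEC genes of this kind, among them the sort gene Prox1, were called in the angII hearts and in the ctrl hearts (medians 4.10 and 4.07). All 82 BEC genes were called in the angII hearts and 80 in the ctrl hearts. Of all genes tested in the angII hearts, 22.6% were higher in LECs and 8.17% in BECs. The median of the BEC genes was -2.28 in angII and -3.67 in ctrl hearts. Their change had a sign towards LECs in 78 of 82, also after quantile normalization (medians -2.33 and -3.67). On the TPM scale, the median LEC level of these 82 genes was 24.3%, 10.0%, 38.6%, 25.6% and 12.1% of the BEC level in the angII mice. It was 11.9%, 3.28%, 10.9% and 4.45% in ctrl mice 1, 5, 9 and 11. In angII+VEGFC mice 2, 6 and 8, whose own differences chose the genes and so set these values low, it was 5.77%, 4.81% and 6.18%. Mouse 12 of the angII group lay within the ctrl range, and mouse 18 just above it. On the log2 scale the medians of mice 12 and 18, -3.22 and -2.97, both lay within the ctrl range of -4.25 to -2.84. The reverse value, the BEC level of the 72 lymphatic genes as a percentage of the LEC level, was between 2.21% and 4.22% in the angII mice and between 2.86% and 5.22% in the ctrl mice. The 82 genes include 4 haemoglobin genes, whose copies share reads, and without them the median was -2.31 in angII and -3.65 in ctrl hearts. In batch 1 the angII mice lay at 24.3%, 10.0% and 38.6% beside 11.9% and 10.9% in ctrl mice, and in batch 2 at 25.6% and 12.1% beside 3.28% and 4.45%.

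**Figure D4:**
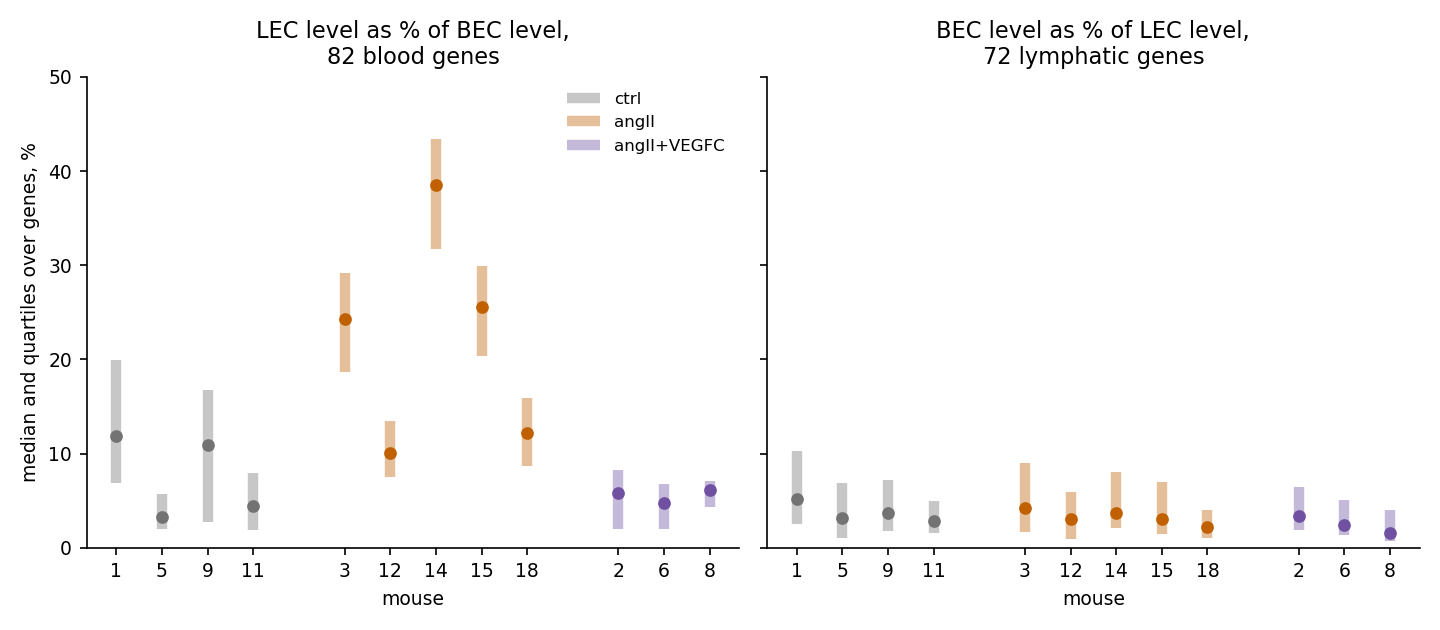
Level in the other population as a percentage of the level in the own population, median over the strongest lineage genes, for each mouse by treatment: the BEC genes in LECs and the LEC genes in BECs. The angII mice range from 10.0% to 38.6% for the BEC genes and from 2.21% to 4.22% for the LEC genes, while the ctrl mice range from 3.28% to 11.9% and from 2.86% to 5.22%.

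Named blood genes differed in how far their values lay apart between angII and ctrl hearts, and none of them passed the test of the change. Sox17 had a difference of -2.82 in angII and -5.15 in ctrl hearts, with LEC levels of 132, 23.2, 1.6 and 84.3 TPM in the 4 ctrl mice. Vegfc had a difference of -2.29 in angII and -4.66 in ctrl hearts, with ctrl LEC levels of 1.17, 2.35, 5.34 and 9.1 TPM against ctrl BEC levels of 121, 91.5, 135 and 123 TPM. Gja5, connexin 40 of arterial endothelium, had a difference of -1.18 in angII and -4.21 in ctrl hearts (adjusted p of the change 0.162). Aplnr stood at -2.66 in angII and -4.60 in ctrl hearts, Apln at -1.81 in angII and -4.11 in ctrl hearts and Fabp4 at -1.95 in angII and -3.48 in ctrl hearts. For other blood genes the values lay close together, such as Flt1, with -1.97 in angII and -1.88 in ctrl hearts, Kdr, with -1.25 in angII and -1.28 in ctrl hearts, and Nos3, with -0.75 in angII and -0.84 in ctrl hearts. Of the 24 blood endothelial genes, 17 had a change with a sign towards LECs and 7 away, with a median of 0.43. Of the 24 lymphatic genes the numbers were 13 and 11, with a median of 0.17. None was past the threshold, and the median change over all genes tested was 0.26.

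The test of the change itself, limma's comparison of the LEC minus BEC difference between 5 angII and 4 ctrl mice, called 3 of 27925 genes (0.0107%), with 2696 at an unadjusted p under 0.05. C1qtnf5, a C1q and TNF-related secreted protein, was at 23.9, 12.6, 20.1, 5.27 and 15.5 TPM in angII LECs and 0, 0.558, 1.09 and 0 TPM in ctrl LECs. Every angII LEC value was above every ctrl LEC value, while the BEC libraries ran from 7.95 to 43.2 TPM and from 17.7 to 30.7 TPM. The change was 3.55 ± 0.41 (adjusted p = 0.0166). C1qtnf5 overlaps Mfrp on the same strand and Rnf26 on the other, so that its reads may come from either. Rgs4, a regulator of G-protein signalling, was at 22.3, 9.24, 4.13, 7.57 and 17.3 TPM in angII LECs and 0.397, 1.25, 1.05 and 0 TPM in ctrl LECs. The groups of LEC libraries again did not overlap, and the change was 3.71 ± 0.48 (adjusted p = 0.0314), with BEC levels of 9.96, 16.6, 7.3, 14.4 and 20.4 TPM in angII and 22.9, 24.9, 23.1 and 27.1 TPM in ctrl hearts. Sybu, syntabulin, a kinesin adaptor, was at 12.4, 11.6, 16, 10.7 and 10.9 TPM in angII LECs and 1.37, 0.0963, 0.0759 and 0.0507 TPM in ctrl LECs. In all angII mice BECs stayed above LECs, at 47.1, 85.3, 60.4, 58.8 and 82.5 TPM, and the change was 2.94 ± 0.40 (adjusted p = 0.037). For all 3 the LEC level was near 0 in ctrl hearts. The BEC ranges of the groups overlapped for C1qtnf5 and Sybu, whereas for Rgs4 every ctrl BEC library lay above every angII BEC library. The calls did not hold in every setting. With a pseudocount of 0.1 none of the 3 passed (adjusted p of 0.0527 for C1qtnf5, 0.0674 for Rgs4 and 0.0527 for Sybu), and the 1 gene called was Kcne4, a potassium channel subunit, which was named after its value was seen. In other settings 0 genes passed without a filter, at 20 mean TPM or more, under quantile normalization, with the number of detected genes as a covariate or with the angII+VEGFC mice added to the fit, and 0 without angII mouse 14, angII mouse 15 or ctrl mouse 11. Rgs4 also lost its call without angII mouse 18 (adjusted p = 0.0703), ctrl mouse 1 (0.0506) or ctrl mouse 5 (0.0687). Sybu lost its call without angII mouse 3 (adjusted p = 0.142), angII mouse 18 (0.0628), ctrl mouse 5 (0.109) or ctrl mouse 9 (0.0521). Leaving out ctrl mouse 9 gave 8 genes in all and angII mouse 12 gave 7. Ranges of the mice did not overlap between the groups in 881 genes (3.15%).

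**Figure D5:**
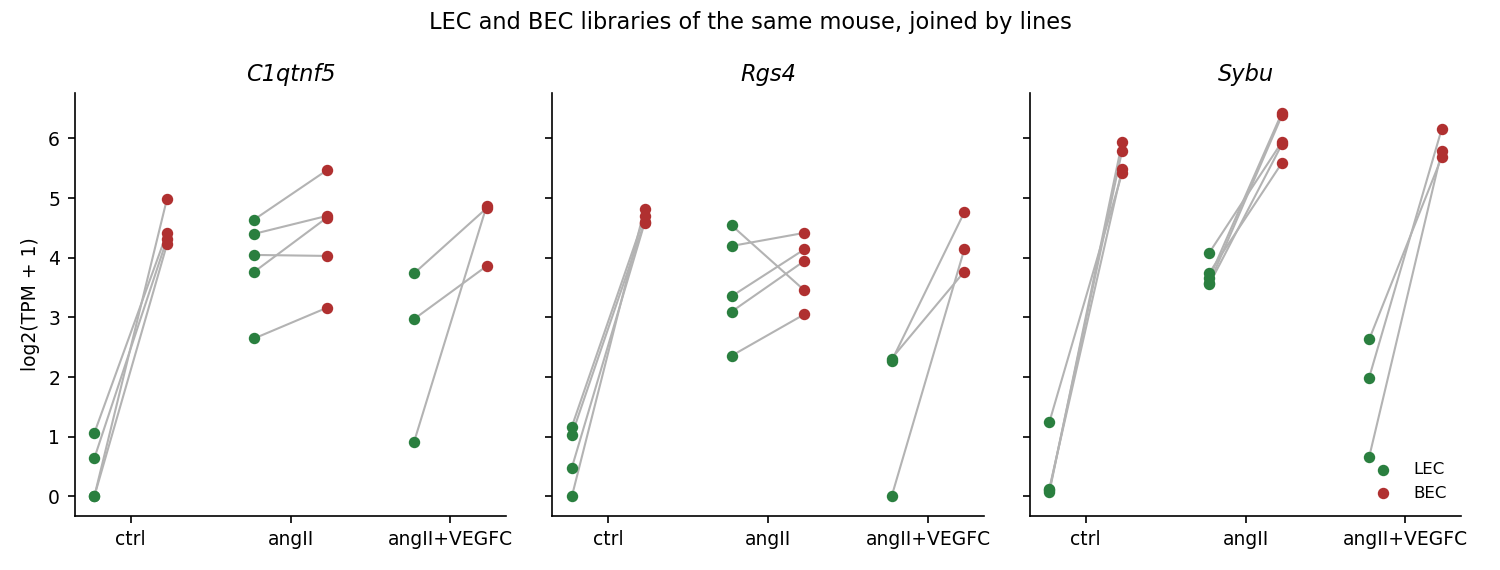
Level as log2(TPM + 1) in the LEC and BEC libraries of ctrl, angII and angII+VEGFC mice for C1qtnf5, Rgs4 and Sybu. Each library is 1 point, and a line joins the libraries of 1 mouse. In LECs the angII mice sit above the ctrl mice for each gene, while the BEC points of ctrl and angII mice overlap for C1qtnf5 and Sybu and not for Rgs4.

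Markers of other cells were present in the sorted libraries, and their levels are given beside these values. The summed level of 10 cardiomyocyte markers was between 260 and 1502 TPM in the angII LEC libraries (median 963) and between 190 and 306 TPM in the BEC libraries (median 259), higher in LECs in 5 of 5 mice. Of the 10, 9 were higher in LECs and 1 did not pass, and none was at 0 in any angII library. Over all genes tested in the angII hearts, 22.6% were higher in LECs and 8.17% in BECs. In the ctrl hearts 1 of the 10 was higher in BECs and 9 did not pass. Mb, myoglobin, was at 104, 53.4, 182, 198 and 309 TPM in LECs and at 46.2, 39.4, 49.9, 31.5 and 45.2 TPM in BECs. In the ctrl hearts the sum was between 209 and 482 TPM in LECs and between 234 and 509 TPM in BECs, and the change of the difference was 1.69 on the log2 scale (exact permutation p = 0.0159, adjusted 0.0635 over 8 measures). The part of these transcripts in the results was not tested.

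The sum of 9 erythroid and platelet markers was between 2103 and 6554 TPM in angII LECs and between 5791 and 31369 TPM in angII BECs. In ctrl LECs it ran from 15.8 to 2208 TPM, which just reached the angII range. Of the 9, 6 were higher in BECs in the angII hearts (median difference -1.83) and 8 in the ctrl hearts (median -3.66). The change had a sign towards LECs in 9 of 9, with none past the threshold. For the lists of this paragraph, the median change over all genes tested was 0.26, also towards LECs. Of all genes tested in the angII hearts, 22.6% were higher in LECs and 8.17% in BECs. None of 10 pericyte and smooth muscle markers passed in the angII hearts, 6 were higher in BECs in the ctrl hearts, and the change had a sign towards LECs in 10 of 10 (median 1.78). Of 10 fibroblast markers 2 were higher in LECs in the angII hearts (median difference -0.15), while in the ctrl hearts 2 were higher in LECs and 3 in BECs (median -1.76), and the change had a sign towards LECs in 8 of 10 (median 1.42), none past the threshold. Postn, periostin, stood at 3.13 in angII and 4.74 in ctrl hearts. Of 10 macrophage and leukocyte markers, 8 passed the filter and 1, Ptprc, was higher in LECs. Of 6 mesothelial markers 4 passed the filter and 1 was higher in BECs, and of 7 adipocyte and Schwann markers 1 passed it. The LEC library of mouse 3 held mesothelial genes, with Msln at 60.03 TPM against a highest value of 9.49 TPM in the other angII LEC libraries. Without mouse 3, 3959 genes were higher in LECs and 1702 in BECs. The part of these cells in the narrower blood differences was not tested.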

How the data were processed

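RNA of sorted heart LECs and BECs was made into libraries from ultra-low RNA input with a SMART-Seq kit and Nextera XT, which keep no strand. The authors aligned reads to GRCm38 and estimated gene levels, and the deposited matrix holds TPM for 54752 genes. The submitters' processing notes name STAR 2.5.3a and Salmon 0.12.0. The authors also left out outlying samples. TPM was used because the deposited values hold no counts, so the depth and the precision of each library are unknown. Library totals ran from 997657 to 999929 TPM, 54723 genes were matched to a symbol, and coordinates were taken from GENCODE vM21 (GRCm38).

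LEC and BEC libraries were paired by the animal number in the labels, and since same-numbered libraries come from the same mouse, the mouse was a block in every fit. The test took genes that reached 1 TPM in 3 or more libraries of the fit, and was run on log2(TPM + 1) with limma 3.58.1 in R 4.3.3, moderated, two-sided, with Benjamini-Hochberg adjustment over all genes tested and a threshold of 0.05. The ctrl hearts were fitted likewise, and the change was the difference of the paired differences over both groups. Exact permutation tests of single values ran in Python 3.11.15, with plots by matplotlib 3.10.9. No libraries held identical values. On simulated data, a shift of 2 log2 units was recovered in 182 of 200 genes for the angII comparison and in 166 of 200 for the change. There were 6 and 13 false calls. The simulated noise took the spread of the ctrl BEC libraries alone, and only well-detected genes were shifted. The spread of the LEC libraries and the gap in detected genes were not simulated. These shares therefore check the fits and do not give the power in the real data.

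The genes named were Prox1, Lyve1 and Nos3, every gene called in the change, and a ranking in each direction. The ranking took the 8 largest called differences at 10 TPM or more with the same sign in all mice. It left out predicted, unnamed or clone-named genes, ribosomal protein genes, mitochondrially encoded genes and small RNAs. Sprr2 genes, pseudogenes and symbols shared by several genes were left out too. Up to 4 called members of each of 27 gene lists and members that a role required were also named. The comparison, members and lists were chosen with earlier results of these data known. The alternatives were another pseudocount, no filter, a filter of 20 mean TPM, quantile normalization, the number of detected genes as a covariate, no mouse block, batch, more mice and each mouse left out. Batches taken alone, calls counted by level, and other limits, scaling and members for the gene sets were added after seeing the data. Other tissues and cardiomyocyte libraries were not used here, and 1 gene of the lists is not reported here.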

Additional observations from a re-analysis of the deposited data

Results flagged for a closer look

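The 5 changes below between the angII and ctrl hearts had a p under 0.05 in a test of the difference itself. The LEC minus BEC difference in log2(TPM + 1) moved by 3.55 for C1qtnf5, by 3.71 for Rgs4 and by 2.94 for Sybu (adjusted p of 0.0166, 0.0314 and 0.0370 in limma). The LEC minus BEC difference in how many genes reached 1 TPM moved by 5039 genes, and that of the summed cardiomyocyte markers by 1.69 log2 units, with exact permutation p of 0.00794 and 0.0159, both 0.0635 after adjustment over 8 measures.

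In 9 of 133 groups of values tested, 1 mouse stood apart from the others by Dixon's criterion, where chance alone gives about 5% of groups. In mouse 14 the difference was -1.88 for Slc52a3 (others -3.19 to -2.93), 0.26 for Ackr1 (others -2.96 to -2.67) and 1.87 for Col18a1 (others 2.30 to 2.37). In mouse 18 it was 3.77 for Foxp2 (others 2.64 to 2.89) and 5.70 for Reln (others 4.37 to 4.61). In mouse 15 it was -0.0074 for Ptprc (others 1.39 to 1.78) and 0.92 for Top2a (others 0.45 to 0.53). Mouse 3 had the lowest summed fibroblast markers in LECs relative to BECs, -1.69 (others 0.58 to 1.404), and the highest pericyte and smooth muscle markers, 2.25 (others -1.16 to -0.33).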

How the results depend on the processing

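The 7417 genes called between LECs and BECs in the angII hearts became 4670 without a filter, 2304 with a filter of 20 mean TPM, 4262 after quantile normalization, 3797 in batch 1, 2775 in batch 2 and 0 with the number of detected genes as a covariate, and 2518 calls lay at 20 TPM or more. A pseudocount of 0.1 gave 6963, and leaving out 1 mouse gave 4961 to 6422. Without the mouse as a block, which the animal numbers supply, the count was 6482, and it was 1798 in ctrl hearts and 3 for the change. The naming rule chose 92 genes, mostly from those already called, and 90 were called, all but C1qtnf5 and Rgs4. Uncalled genes named for a role alone, such as Gata2 and Nrp2, are not among the 92. The call and sign stayed for 90 with a pseudocount of 0.1, 88 after quantile normalization and 87 without the block. With the detected-gene covariate all 90 lost the call, 11 of them with a turned sign: Ace 0.84, Ackr1 1.94, Apln 1.08, Bdkrb2 0.11, Cdk1 0.96, Mfng 0.38, Nfatc1 -0.16, Nos3 0.10, Npr3 4.41, Vcam1 2.18 and Vegfc 1.15. The cause was not tested. The ctrl comparison called 1157 genes without a filter and 1202 to 1886 with a mouse left out, the lowest without mouse 5. With the detected-gene covariate it called 1413, of which 539 were higher in LECs and 874 in BECs. The change called 1 gene with a pseudocount of 0.1, which was Kcne4 and none of the 3 of the report, and 0 without a filter, at 20 mean TPM, with the covariate, with the angII+VEGFC mice added or after quantile normalization, and 0 to 8 with a mouse left out. Reads per gene are unknown, so that values under a few TPM carry an error that could not be given.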

Other observations

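Genes of the tissue digestion response and of the cell cycle were not part of the comparison of lineages. Of 15 dissociation stress genes, 8 were higher in BECs, none was higher in LECs and 7 did not pass. The background for both lists was 8.17% of all genes higher in BECs and 22.6% in LECs. Hspa1a, an inducible heat shock protein whose reads are shared with Hspa1b, was higher in the BEC library of each mouse, and the difference was -1.73 ± 0.09 in the angII hearts and -1.98 ± 0.10 in the ctrl hearts. Ier3, an immediate early gene, had a difference of -1.34 ± 0.09 in angII and -1.30 ± 0.13 in ctrl hearts. Of 15 cell cycle genes 12 did not pass, 1 was higher in LECs and 2 were higher in BECs, with Mki67, a marker of cycling cells, at 6.63, 0.923, 2.86, 4.02 and 2.00 TPM in LECs and at 5.01, 2.24, 2.63, 3.06 and 2.79 TPM in BECs.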
